A study of Homo sapiens with 14 samples.

Results

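Among the 59471 gene names of the count files, the 7 enzymes PGLS, PGD, H6PD, RPIA, RPE, TKT, and TALDO1 of the pentose phosphate pathway were described across 14 RNA-seq libraries. They were chosen by name from the biochemistry of the pathway and not by their level or change, and all 7 had counts in every library. The libraries came from SCC23, an established human HNSCC cell line, grown in high glucose medium (+Glc) or deprived of glucose for 6 h (-Glc). KMT2D-WT cells and the lines KO1 and KO2 of KMT2D-KO cells were compared, with KMT2D edited by transient Cas9 and a sgRNA, and a sgRNA against LacZ used in the same protocol. Whether each line is a single clone is not stated. Each condition held 3 KMT2D-WT and 4 KMT2D-KO libraries from 2 experiments. Experiment 1 had 1 library of KMT2D-WT, KO1, and KO2 per condition, and experiment 2 had 2 of KMT2D-WT and 1 of each line. Nothing in the labels tells whether the 2 KMT2D-WT libraries of experiment 2 came from separate cultures, so p-values measure the spread between these libraries.

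The pentose phosphate pathway draws glucose 6-phosphate away from glycolysis. Its oxidative branch makes NADPH, which cells use for lipid synthesis and to keep glutathione reduced, and ends in ribulose 5-phosphate. The non-oxidative branch interconverts sugar phosphates reversibly, and thus yields ribose 5-phosphate for nucleotides or returns carbon to glycolysis as fructose 6-phosphate and glyceraldehyde 3-phosphate.

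Total counts ran from 15669154 to 62968057 per library, with a median of 24817708. The 4 experiment 2 libraries with glucose were counted with both mates, and between 67.4% and 70.6% of their low counts were even, against 37.4% to 42.7% in the 10 others. Within experiment 2, glucose deprivation and the way of counting therefore cannot be told apart. The 2 KMT2D-WT libraries of experiment 2 without glucose differed little from each other (a chi-square per gene of 1.65), as did the 2 KMT2D-KO libraries of that set (1.71), whereas the 4 other pairs of a group and experiment gave 23.0 to 72.7. Whether the libraries of either close pair are separate cultures is not given. The p-values without glucose thus rest in part on the small spread within these pairs. Over 48 genes that separated KO1 from KO2 with glucose, the library labelled KO1 in experiment 2 without glucose lay 0.35 on the log2 scale from KO2 and 4.16 from KO1 of experiment 1 (median absolute differences), and the name of its count file gives KO2, so it is called by its label. The KMT2D transcript was at 266 to 279 CPM (each count relative to the library's total, TMM-scaled) in KMT2D-WT cells with glucose, at 182 and 184 CPM in KO1, and at 323 and 373 CPM in KO2. Without glucose it was at 231 to 239 CPM in KMT2D-WT cells and, in KMT2D-KO cells, at 19.9 CPM (KO1) and 190.2 CPM (KO2) in experiment 1 and 152 CPM (the library labelled KO1) and 145 CPM (KO2) in experiment 2. Small edits need not change the RNA level, so this does not test the loss of the protein. The study checked the knockout in SCC23 cells by genomic sequencing and western blot. Of 7 squamous markers, SFN, TP63, and CDH1 reached at least 49.9 CPM in every library, KRT14 ran from 26.5 to 253 CPM, DSG3 from 9.28 to 63.1 CPM, and KRT5 from 1.5 to 225 CPM, whereas KRT6A stayed at or below 1.13 CPM. The sum of the leukocyte markers stayed at or below 0.29 CPM, that of the endothelial markers at or below 4.11 CPM, and that of the fibroblast markers at or below 6.32 CPM.

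Before the values, the promoters of the 4 members that were higher in KMT2D-KO cells in both glucose conditions are shown with that of H6PD, the 1 member that was lower in both. Each is the 250 bases upstream of the start that RefSeq gives (GRCh38.p14), written 5′ to 3′ on the strand of the gene. Capitals mark the motifs searched, which were the GC box GGGCGG, the CCAAT box CCAAT, the E-box CACGTG, the core of the antioxidant response element TGACNNNGC, and the AP-1 site TGANTCA. All were searched on both strands, neighbouring GC boxes can share bases, and the letters of the last 2 motifs can overlap.
PGD: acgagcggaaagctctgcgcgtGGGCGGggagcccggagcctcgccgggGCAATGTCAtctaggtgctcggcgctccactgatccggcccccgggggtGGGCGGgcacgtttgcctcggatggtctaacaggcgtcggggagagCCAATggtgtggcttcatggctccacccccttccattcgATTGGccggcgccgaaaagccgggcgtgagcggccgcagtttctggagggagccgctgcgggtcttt
RPE: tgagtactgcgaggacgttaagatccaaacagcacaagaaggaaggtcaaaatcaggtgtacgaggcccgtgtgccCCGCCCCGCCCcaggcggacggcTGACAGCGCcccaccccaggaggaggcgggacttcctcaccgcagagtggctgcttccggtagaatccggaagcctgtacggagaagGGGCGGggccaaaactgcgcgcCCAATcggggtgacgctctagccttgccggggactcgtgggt
TKT: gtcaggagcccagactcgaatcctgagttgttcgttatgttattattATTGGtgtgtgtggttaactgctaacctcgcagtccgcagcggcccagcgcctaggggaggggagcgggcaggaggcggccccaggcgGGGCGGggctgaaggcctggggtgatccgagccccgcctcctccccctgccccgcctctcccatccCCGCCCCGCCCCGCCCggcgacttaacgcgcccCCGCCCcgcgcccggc
TALDO1: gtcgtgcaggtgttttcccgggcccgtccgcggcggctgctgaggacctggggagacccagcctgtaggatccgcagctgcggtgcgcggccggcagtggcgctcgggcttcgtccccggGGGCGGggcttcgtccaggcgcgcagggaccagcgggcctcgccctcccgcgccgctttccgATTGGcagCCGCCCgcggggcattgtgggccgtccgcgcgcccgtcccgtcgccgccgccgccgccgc
H6PD: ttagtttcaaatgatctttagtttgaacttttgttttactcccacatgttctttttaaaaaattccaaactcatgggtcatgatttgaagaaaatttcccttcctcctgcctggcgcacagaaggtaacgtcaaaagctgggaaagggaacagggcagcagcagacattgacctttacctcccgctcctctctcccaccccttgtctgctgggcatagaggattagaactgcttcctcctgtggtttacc
These windows are chr1:10398814-10399063 for PGD, chr2:210002388-210002637 for RPE, chr3:53256023-53256272 on the minus strand for TKT, chr11:747214-747463 for TALDO1, and chr1:9239597-9239846 for H6PD. The windows of PGD and H6PD lie wholly inside the interval that the count files give the gene, because RefSeq places the start farther downstream, and the other 3 shown lie partly inside it. That interval begins at 10398592 for PGD and, much farther from its window, at 9234774 for H6PD. The bases upstream of these intervals were not searched, so the H6PD window may not be the promoter of all its counted transcripts. TALDO1 had 78.4% G and C in its window, TKT 70.4%, PGD 68.4%, RPE 64.4%, and H6PD 44.8%. The GC box was found in 5 of the 7 members (PGD, RPIA, RPE, TKT, and TALDO1) and in 42.6% of 35116 windows of that length over all promoters. The same 5 members held a CCAAT box, which 32.0% of all windows held. The antioxidant response element letters, which NRF2 binds with its partners, were in PGD and RPE and in 10.9% of all windows. No member held the E-box letters (6.34% of all windows) or the AP-1 letters (6.57%) in this window. PGLS and H6PD held none of the 5 motifs. These are matches of letters, and binding was not examined.

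Scaled by exonic length, TALDO1 had the highest level of the 7 in all 4 groups and H6PD the lowest. The exonic length is the union of all isoforms. Genes for which this union is long, such as TKT with 9502 exonic bases, may thus rank lower than their number of transcripts would place them. In CPM not scaled by length, TKT and not TALDO1 had the highest mean in each group, with 298 against 143 CPM in KMT2D-WT cells with glucose. In KMT2D-WT cells with glucose, the levels in CPM per exonic kilobase (mean ± SD, n = 3) were 49.3 ± 14.2 for TALDO1, 35.3 ± 0.51 for PGD, 31.3 ± 7.26 for TKT, 22.5 ± 4.10 for RPE, 13.3 ± 4.26 for RPIA, 11.1 ± 4.45 for PGLS, and 2.95 ± 0.05 for H6PD. Neighbours in this order whose libraries overlapped were PGD and TKT, RPE and RPIA, and RPIA and PGLS. In KMT2D-KO cells without glucose the order was TALDO1, TKT, PGD, RPE, PGLS, RPIA, and H6PD, and RPIA and PGLS were the only neighbours in that order with overlapping libraries. The level of TALDO1 was there 120.7 ± 27.5 CPM per kilobase and that of H6PD 0.94 ± 0.16 (SD, n = 4).

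**Figure D1:**
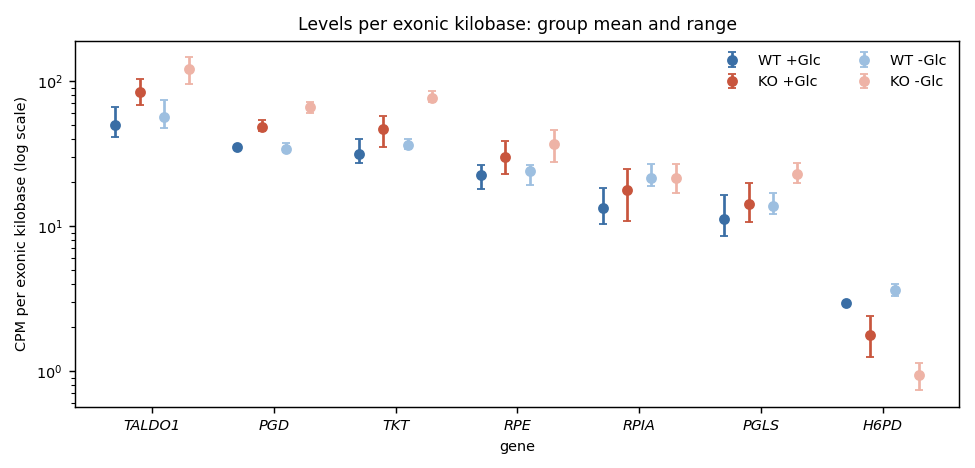
Mean level of each member in CPM per exonic kilobase (log scale) in KMT2D-WT (blue) and KMT2D-KO (red) cells with (dark) and without (pale) glucose; bars span the lowest to the highest library of 3 or 4. TALDO1 stands highest and H6PD lowest in each group, and H6PD alone goes down from KMT2D-WT to KMT2D-KO cells in both conditions.

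The comparison of KMT2D-KO with KMT2D-WT cells asks how loss of this histone methyltransferase changes expression in each glucose condition. In cells kept in glucose, 4 of the 7 members (PGD, RPE, TKT, and TALDO1) were higher in KMT2D-KO cells and 1 (H6PD) was lower by edgeR's quasi-likelihood test at an adjusted p-value under 0.05. Of the 20423 genes tested, 13% were called higher and 11.7% lower. In glucose-deprived cells 5 members (PGLS and the same 4) were higher and H6PD was lower, when 25.9% of 16782 genes were called higher and 24.9% lower. The median log2 fold change over the members was 0.48 with glucose and 0.67 without, against 0.02 and 0.00 over all genes tested. RPIA was not called in either condition. In bulk RNA, fewer cells with a transcript and less of it per cell cannot be told apart. The share of all genes whose libraries separate the genotypes or the glucose conditions was not counted, so the separations given below stand without it.

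**Figure D2:**
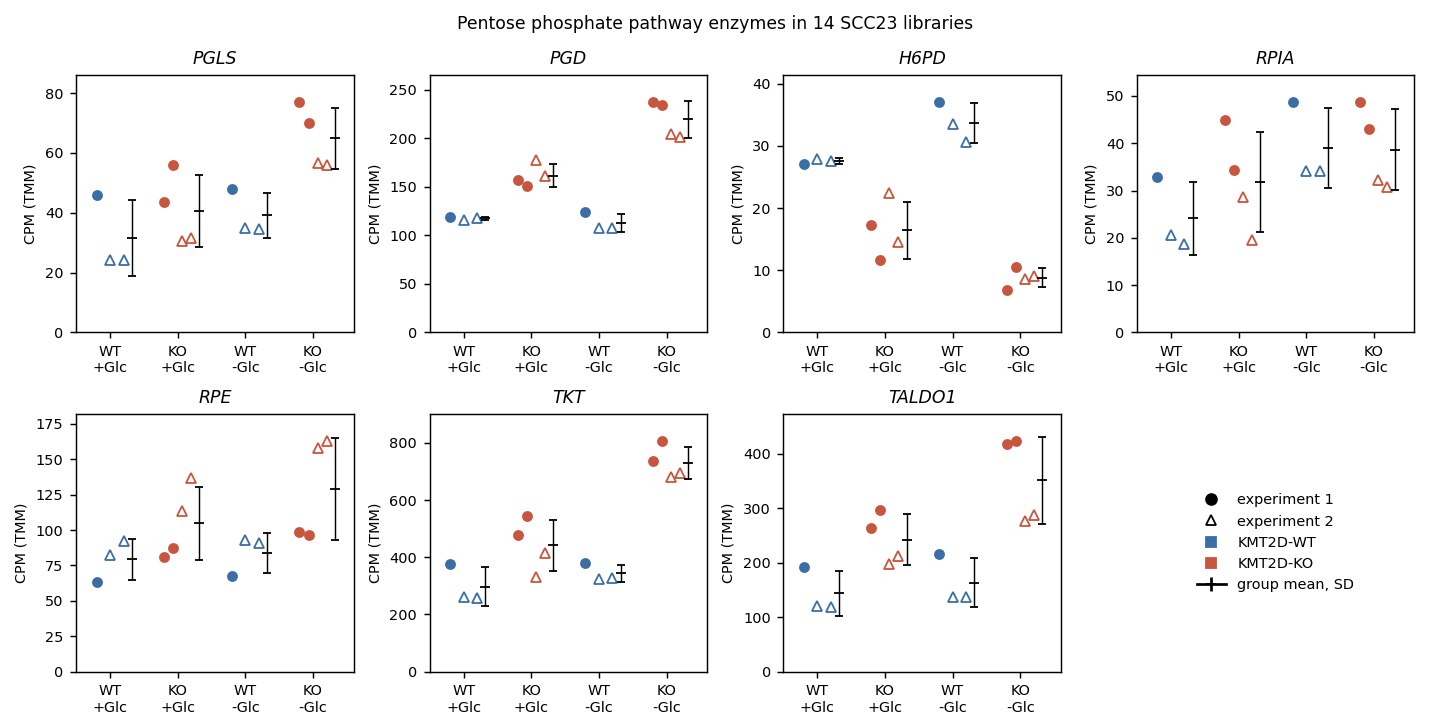
CPM (TMM-scaled over all 14 libraries) of each member in every library, by genotype and glucose; filled circles are experiment 1, open triangles experiment 2, and the black bars the group mean with its SD (n = 3 or 4). Without glucose all 4 KMT2D-KO libraries lie above all 3 KMT2D-WT libraries for PGLS, PGD, RPE, TKT, and TALDO1 and below them for H6PD, while those of RPIA overlap. The share of all genes that separate in this way was not counted.

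In the oxidative branch, PGLS hydrolyzes 6-phosphogluconolactone, and PGD oxidizes 6-phosphogluconate to ribulose 5-phosphate while reducing NADP+. PGLS lies on chromosome 19 from 17511636 to 17521288 (plus strand, GRCh38), with 8.9% of its exonic bases shared with AC010618.3, and PGD on chromosome 1 from 10398592 to 10420511 (plus strand). PGD was at 119, 116, and 118 CPM in the KMT2D-WT libraries with glucose (experiment 1 first) and at 157 (KO1) and 150.5 (KO2) CPM in experiment 1 and 178 (KO1) and 161 (KO2) CPM in experiment 2 in KMT2D-KO cells. Without glucose it was at 124, 107, and 108 CPM in KMT2D-WT cells and at 237, 235, 204, and 201 CPM in the KMT2D-KO libraries in the same order. All KMT2D-KO libraries thus lay above all KMT2D-WT libraries in both conditions. The log2 fold change of PGD was 0.48 with glucose (SE 0.08, edgeR adjusted p = 0.003) and 0.90 without (SE 0.06, edgeR adjusted p = 1.03e-04).

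PGLS separated the genotypes only partly when glucose was present. With glucose it was at 46.1, 24.1, and 24.2 CPM in KMT2D-WT cells, and in KMT2D-KO cells at 43.7 and 56.1 CPM in experiment 1 and 30.4 and 31.7 CPM in experiment 2. The 2 experiments stood farther apart than the genotypes, and the log2 fold change of 0.27 (95% interval 0.01 to 0.53) was not called (edgeR adjusted p = 0.12). Without glucose the KMT2D-WT libraries were at 47.9, 35.0, and 34.4 CPM and the KMT2D-KO libraries at 77.0, 69.9, 56.5, and 56.0 CPM, with no overlap. The log2 fold change was then 0.65 (SE 0.08, edgeR adjusted p = 6.94e-04).

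H6PD works in the lumen of the endoplasmic reticulum, where it carries out the opening steps of the oxidative branch in a single protein and supplies NADPH to that compartment. It lies on chromosome 1 from 9234774 to 9271337 (plus strand). With glucose H6PD was at 27.0, 28.0, and 27.5 CPM in KMT2D-WT cells, a narrow range, and at 17.3 (KO1) and 11.6 (KO2) CPM in experiment 1 and 22.4 (KO1) and 14.5 (KO2) CPM in experiment 2 in KMT2D-KO cells. In the absence of glucose it was at 37.0, 33.6, and 30.6 CPM in KMT2D-WT cells and at 6.89, 10.6, 8.64, and 9.04 CPM in KMT2D-KO cells. The genotypes did not overlap in either condition, and the direction was opposite to that of the 5 members that rose. The log2 fold change was -0.71 with glucose (SE 0.18, edgeR adjusted p = 0.0219) and -1.97 without (SE 0.13, edgeR adjusted p = 8.89e-05), a level 3.91-fold lower. The call with glucose was lost when any 1 of the KMT2D-WT libraries was left out, with edgeR adjusted p-values of 0.191, 0.0714, and 0.0669 for replicates 1, 2, and 3 and log2 fold changes from -0.74 to -0.60. Per exonic kilobase, H6PD stood at 8.37% ± 0.26 of the PGD level in KMT2D-WT cells with glucose (SD, n = 3) and at 3.61% ± 0.77 in KMT2D-KO cells (SD, n = 4). Without glucose the same ratio was 10.7% ± 0.53 (SD, n = 3) and 1.44% ± 0.27 (SD, n = 4).

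The non-oxidative branch opens with the isomerase RPIA and the epimerase RPE, which turn ribulose 5-phosphate into ribose 5-phosphate and xylulose 5-phosphate. RPIA lies on chromosome 2 from 88691673 to 88750929 and RPE on chromosome 2 from 210002565 to 210022260 (both plus strand), and RPE shares 23.8% of its exonic bases with KANSL1L, which counting without strand cannot divide. RPE was at 63.7, 82.7, and 92.0 CPM in KMT2D-WT cells with glucose and at 80.8 and 87.6 CPM (experiment 1) and 113 and 137 CPM (experiment 2) in KMT2D-KO cells. Experiment 2 was the higher one in both genotypes, so the groups overlapped as a whole and not within an experiment. Without glucose the KMT2D-WT libraries were at 67.9, 92.8, and 90.9 CPM and the KMT2D-KO libraries at 98.5, 96.6, 158, and 163 CPM, with no overlap. The log2 fold change was 0.48 with glucose (SE 0.09, edgeR adjusted p = 0.00603) and 0.67 without (SE 0.07, edgeR adjusted p = 4.26e-04).

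RPIA was at 32.9, 20.7, and 18.7 CPM in KMT2D-WT cells with glucose and at 44.9 and 34.3 CPM (experiment 1) and 28.5 and 19.6 CPM (experiment 2) in KMT2D-KO cells. Without glucose it was at 48.7, 34.1, and 34.1 CPM in KMT2D-WT cells and at 48.6, 43.0, 32.2, and 30.8 CPM in KMT2D-KO cells. The genotypes overlapped in both conditions. Its log2 fold change was 0.29 with glucose (95% interval -0.06 to 0.64, edgeR adjusted p = 0.217) and -0.12 without (95% interval -0.33 to 0.09, edgeR adjusted p = 0.279). Without the KO1 library of experiment 1 the value in glucose-deprived cells was -0.17 and was called lower (edgeR adjusted p = 0.0051), in a fit that called 74.4% of all genes tested.

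TKT and TALDO1, the transketolase and transaldolase, move units of carbon between sugar phosphates and connect the branch to glycolysis. TKT lies on chromosome 3 from 53224712 to 53256052 (minus strand) and TALDO1 on chromosome 11 from 747415 to 765012 (plus strand). TKT was at 377, 259, and 256 CPM in KMT2D-WT cells with glucose and at 477 and 542 CPM (experiment 1) and 332 and 413 CPM (experiment 2) in KMT2D-KO cells. Without glucose it was at 378, 324, and 327 CPM in KMT2D-WT cells and at 736, 805, 681, and 696 CPM in KMT2D-KO cells. With glucose the KMT2D-WT library of experiment 1 fell among the KMT2D-KO libraries of experiment 2, and without glucose the lowest KMT2D-KO library stood far above the highest KMT2D-WT library. The log2 fold change was 0.50 with glucose (SE 0.10, edgeR adjusted p = 0.00564) and 1.04 without (SE 0.05, edgeR adjusted p = 4.33e-05), a level 2.05-fold higher.

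TALDO1 was at 191, 121, and 118 CPM in KMT2D-WT cells with glucose and at 264 and 297 CPM (experiment 1) and 197 and 212 CPM (experiment 2) in KMT2D-KO cells. In glucose-deprived cells it was at 216, 137, and 138 CPM in KMT2D-WT cells and at 418, 422, 276, and 288 CPM in KMT2D-KO cells. The genotypes did not overlap in either condition. The log2 fold change was 0.69 with glucose (SE 0.09, edgeR adjusted p = 6.66e-04) and 0.99 without (SE 0.06, edgeR adjusted p = 5.90e-05).

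Within experiment 1, where all libraries were counted alike, the direction was kept for each called member. With glucose the log2 fold changes there were 0.37 for PGD, 0.40 for RPE, 0.43 for TKT, 0.55 for TALDO1, and -0.91 for H6PD. Without glucose they were 0.62 for PGLS, 0.94 for PGD, 0.53 for RPE, 1.03 for TKT, 0.96 for TALDO1, and -2.08 for H6PD. With 1 KMT2D-WT and 2 KMT2D-KO libraries per condition no member was called (lowest edgeR adjusted p = 0.186), while 3 with glucose and 4 without had an unadjusted p under 0.05. Experiment 2 alone called 2 members with glucose, when 11.7% of all genes tested were called, and 7 without, when 74.5% were and the replicates were the close pairs described above. When the experiment 1 library of KMT2D-WT cells was left out, 2 members remained called with glucose (PGD and TALDO1), and the adjusted p was 0.0541 for RPE and 0.0567 for TKT by the same edgeR test.

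**Figure D3:**
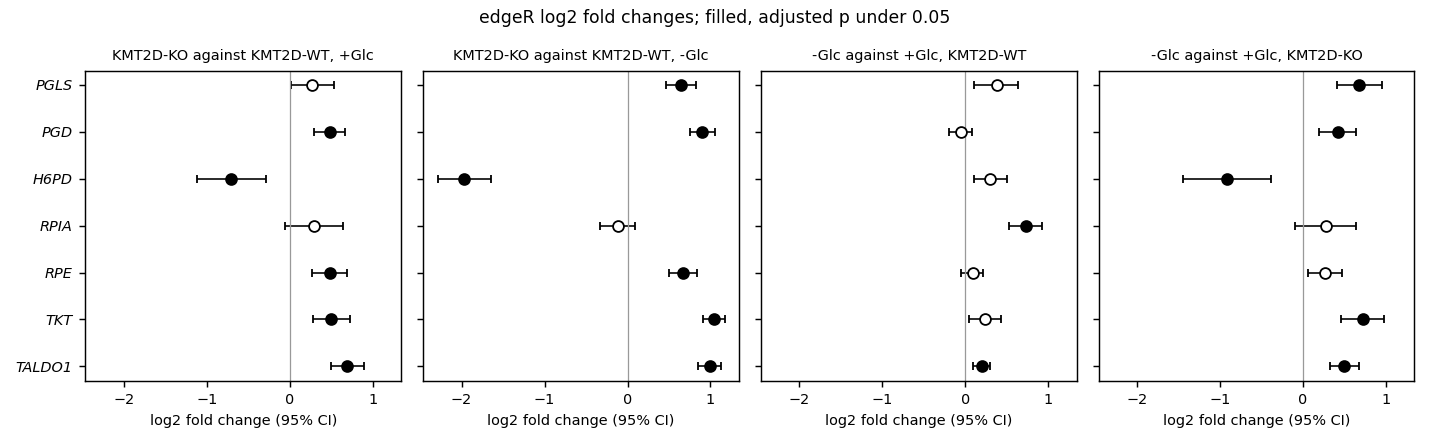
edgeR log2 fold changes of the members with 95% confidence intervals in the 4 comparisons; filled points had an adjusted p-value under 0.05. KMT2D-KO cells without glucose stand from 0.65 to 1.04 for the 5 members that were higher and at -1.97 for H6PD. On glucose deprivation of KMT2D-WT cells RPIA at 0.73 and TALDO1 at 0.20 were called. PGLS at 0.38, H6PD at 0.30, and TKT at 0.24 were not called there, though their intervals exclude no change.

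The response to 6 h without glucose was then compared within each genotype, with the same libraries as above. In KMT2D-WT cells 2 of the 7 members were higher (RPIA and TALDO1) and none was lower, when 7.15% of 17227 genes were called higher and 7.58% lower. RPIA rose by a log2 fold change of 0.73 (SE 0.08, edgeR adjusted p = 0.0168), and its 3 libraries without glucose lay above its 3 libraries with glucose. The libraries of H6PD separated in the same way (30.6 to 37.0 against 27.0 to 28.0 CPM), though its change was not called. TALDO1 rose by 0.20 (SE 0.04, edgeR adjusted p = 0.0385). The values of the others were 0.38 for PGLS, 0.30 for H6PD, 0.24 for TKT, 0.09 for RPE, and -0.05 for PGD (edgeR adjusted p from 0.0611 to 0.493). Both calls were lost when any 1 of the 4 experiment 2 libraries of KMT2D-WT cells was left out, while leaving out the KMT2D-WT library of experiment 1 gave 4 called members (the one with glucose) or 5 (the one without), when the share of all genes called went from 14.7% to 47.4% and 47.6%. In experiment 1 alone the values were 0.57 for RPIA, 0.46 for H6PD, 0.18 for TALDO1, 0.01 for TKT, and 0.06 for both PGLS and PGD.

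In KMT2D-KO cells 4 members were higher without glucose (PGLS, PGD, TKT, and TALDO1) and H6PD was lower, when 14% of 16057 genes were called higher and 16% lower. TKT rose by 0.72 (SE 0.11, edgeR adjusted p = 0.00517), PGLS by 0.68 (SE 0.12, edgeR adjusted p = 0.00653), TALDO1 by 0.50 (SE 0.08, edgeR adjusted p = 0.00523), and PGD by 0.42 (SE 0.10, edgeR adjusted p = 0.0168). H6PD fell by 0.92 on the log2 scale (SE 0.23, edgeR adjusted p = 0.0221). RPE at 0.26 (edgeR adjusted p = 0.0577) and RPIA at 0.28 (edgeR adjusted p = 0.207) were not called. All 4 libraries without glucose lay above the 4 with glucose for PGD and TKT, and below them for H6PD. How many of all genes separate the glucose conditions in this way was not counted. The doubt over the library labelled KO1 in experiment 2 without glucose bears on this comparison, since the lines may be unequally mixed between the conditions. In experiment 1 alone the values were 0.59 for PGD, 0.57 for TKT, 0.56 for TALDO1, 0.53 for PGLS, and -0.74 for H6PD, the same directions, with none called by edgeR (lowest adjusted p = 0.263, 3 with an unadjusted p under 0.05). The adjusted p of PGD passed 0.05 when any 1 of 4 libraries was left out (0.0518 to 0.0668), namely either with-glucose KO2 library, the with-glucose KO1 library of experiment 1, or the without-glucose library labelled KO1 in experiment 2, and that of H6PD when any 1 of 4 was left out (0.0581 to 0.0809), namely either with-glucose KO1 library or either without-glucose library of experiment 2.

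Whether the KMT2D-KO effect differed between the glucose conditions was tested as an interaction over all 14 libraries. It was larger without glucose for TKT by 0.57 on the log2 scale (SE 0.12, edgeR adjusted p = 0.0123) and for PGD by 0.45 (SE 0.10, edgeR adjusted p = 0.0141). For H6PD the difference was -1.23 (SE 0.26, edgeR adjusted p = 0.0121), so that its lower level in KMT2D-KO cells was lower still without glucose. These 3 of 7 members were called, when 11.3% of 18678 genes were called in either direction. TALDO1 at 0.32 (95% interval 0.09 to 0.55), PGLS at 0.40 (0.10 to 0.69), RPE at 0.22 (-0.06 to 0.50), and RPIA at -0.39 (-0.78 to 0.01) were not called (edgeR adjusted p from 0.0715 to 0.302). The 3 calls were lost when each close pair of experiment 2 was summed into 1 library, with values of 0.56 for TKT, 0.46 for PGD, and -1.26 for H6PD (edgeR adjusted p = 0.109, 0.12, and 0.0789). Leaving out the KMT2D-WT library of experiment 1 with glucose left only H6PD called, and leaving out the one without glucose left only TKT, with 4.58% and 4% of all genes called, whereas leaving out the KO1 library of experiment 1 without glucose gave 5 called members with 22.5% of all genes called. With library-size scaling, which moved the median of all genes by -0.23, the median over the members went from 0.32 to 0.10, and the values were 0.34 for TKT (edgeR adjusted p = 0.0443) and 0.23 for PGD, which was not called (edgeR adjusted p = 0.184). The without-glucose library labelled KO1 in experiment 2 lay near KO2, so the lines may be unequally mixed between the glucose conditions. With glucose KO1 differed from KO2 by 0.59 for H6PD and by -0.26 for TKT. How much of the interaction this makes up was not tested.

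The lines KO1 and KO2 carry different sgRNAs and were compared with glucose, where their labels are not in doubt. Here 3 of 7 members were called, when 14.7% of 21850 genes were called in either direction. KO1 was higher than KO2 for H6PD by 0.59 (SE 0.13, edgeR adjusted p = 0.00348) and for RPIA by 0.46 (SE 0.11, edgeR adjusted p = 0.00777), and lower for TKT by a log2 difference of -0.26 (SE 0.08, edgeR adjusted p = 0.0263). For PGLS, PGD, RPE, and TALDO1 the differences of -0.21, 0.09, -0.21, and -0.15 were not called (edgeR adjusted p from 0.148 to 0.563). H6PD was below all KMT2D-WT libraries in each line. Without the KO1 or the KO2 library of experiment 2 none of the 3 differences was called, without the KO2 library of experiment 1 RPIA alone was, and without the KO1 library of experiment 1 H6PD and RPIA were.

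As shares of the summed level of the 7 enzymes per exonic kilobase, RPIA and H6PD held less in glucose-deprived KMT2D-KO cells than in KMT2D-WT cells, with no overlap between the libraries. The sum was 166 ± 26.6 CPM per kilobase in KMT2D-WT cells with glucose (SD, n = 3), 242 ± 23.9 in KMT2D-KO cells with glucose (SD, n = 4), 189 ± 25.3 in KMT2D-WT cells without (SD, n = 3), and 345 ± 36.0 in KMT2D-KO cells without (SD, n = 4). Without glucose RPIA made up 10.8% to 12.3% of the sum in the KMT2D-WT libraries and 5.36% to 7.16% in the KMT2D-KO libraries, while its own level was 21.5 ± 4.65 (SD, n = 3) and 21.3 ± 4.76 CPM per kilobase (SD, n = 4). H6PD made up 1.82% to 2.07% and 0.197% to 0.307%, and TKT 18.2% to 19.8% and 20.7% to 23.2%. The ranges of the genotypes did not overlap for these 3, whereas those of PGLS (6.96% to 7.74% and 6.23% to 7.23%), RPE (8.83% to 15.1% and 7.27% to 14.6%, with means of 12.9% and 10.9%), and TALDO1 (27.0% to 34.1% and 30.5% to 38.5%) did. PGD went from 17.0% to 18.6% in KMT2D-WT libraries to 18.7% to 19.7% in KMT2D-KO libraries, which do not overlap by a narrow margin. With glucose RPIA held a similar share in both genotypes, 6.82% to 9.25% and 4.77% to 9.78%.

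Further genes of pentose and ribose phosphate use were read from a list of 15, of which 11 were tested between the genotypes. The transketolase-like genes showed next to no RNA, with TKTL1 at 0 counts in every library and TKTL2 at 3 counts or fewer, and neither was tested. With glucose 1 of the 11 was higher in KMT2D-KO cells and none lower, and without glucose 4 were higher and 2 lower. Over all genes tested, 13% were called higher and 11.7% lower with glucose, and 25.9% and 24.9% without. PRPS1, which activates ribose 5-phosphate to PRPP for nucleotide synthesis, was at 47.0 to 50.4 CPM in KMT2D-WT cells with glucose and at 84.8 to 144.8 CPM in KMT2D-KO cells, and without glucose at 47.9 to 49.5 and 97.2 to 178.8 CPM. The genotypes did not overlap, and the log2 fold change was 1.20 with glucose (edgeR adjusted p = 0.00175) and 1.22 without (edgeR adjusted p = 0.0058). Its paralog PRPS2 had values of 0.08 (edgeR adjusted p = 0.522) and 0.27 (edgeR adjusted p = 0.0473). RPEL1, a copy of RPE with which reads could be shared, rose by 0.95 without glucose (edgeR adjusted p = 0.00926) and stayed at or below 6.62 CPM. SHPK, which phosphorylates sedoheptulose, had a value of 0.46 with glucose that was not called (edgeR adjusted p = 0.0664). Without glucose it was lower by a log2 value of -0.68 (edgeR adjusted p = 0.0157). RBKS, the ribokinase, had values of -0.68 and -0.92 that were not called (edgeR adjusted p = 0.0735 and 0.0703).

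TIGAR, a phosphatase that lowers fructose 2,6-bisphosphate and is known to divert glucose into this pathway, went down on glucose deprivation. With glucose it was at 6.45, 8.48, and 10.9 CPM in KMT2D-WT cells and at 9.40, 7.60, 12.5, and 10.9 CPM in KMT2D-KO cells, which overlapped. After deprivation it was at 4.08, 6.01, and 5.92 CPM and at 3.26, 2.69, 2.42, and 2.18 CPM, which did not. It fell by 0.68 on the log2 scale in KMT2D-WT cells (edgeR adjusted p = 0.0382) and had a log2 fold change of -1.96 in KMT2D-KO cells (edgeR adjusted p = 0.002), and the KMT2D-KO effect differed between the conditions by -1.34 (edgeR adjusted p = 0.0103). In glucose-deprived cells its level was lower in KMT2D-KO cells by a log2 value of -1.04 (edgeR adjusted p = 0.0111).

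**Figure D4:**
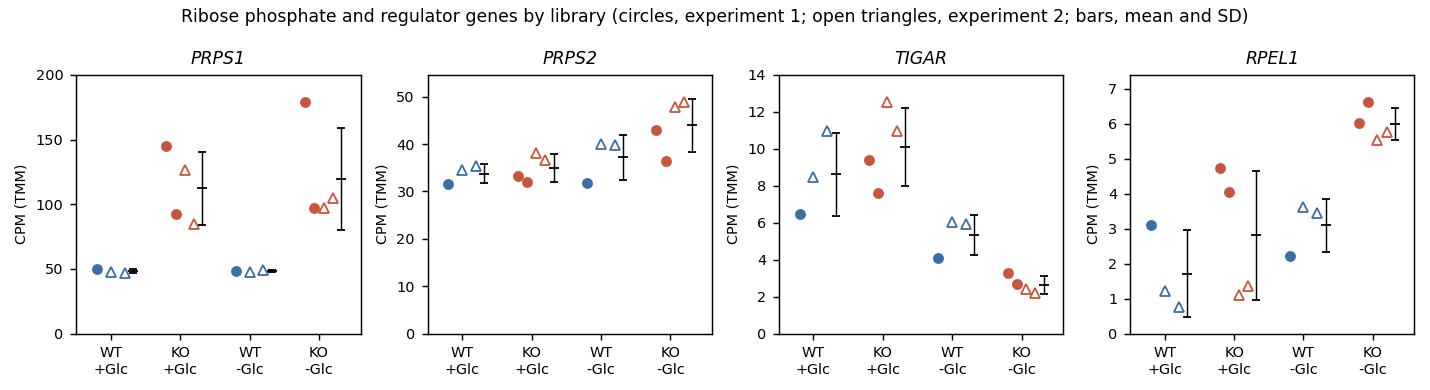
CPM (TMM-scaled) of PRPS1, PRPS2, TIGAR, and RPEL1 in each library by genotype and glucose, with the group mean and SD (n = 3 or 4). The KMT2D-KO libraries of PRPS1 lie at 84.8 CPM or higher with the KMT2D-WT libraries at 50.4 CPM or lower, and those of TIGAR without glucose lie at 3.26 CPM or lower.

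The 5 other lists, written from general knowledge, covered genes that make or use what the pathway shares, and their counts stand beside the 13% of all genes called higher and 11.7% lower with glucose and the 25.9% and 24.9% without. Of 8 glycolytic enzymes that share its intermediates, 1 was higher with glucose (TPI1, log2 fold change 0.39, edgeR adjusted p = 0.012), and without glucose all 7 tested were higher and none lower. The 4 with the largest values there were GAPDH at 0.67, TPI1 at 0.65, ALDOA at 0.59, and GPI, which interconverts glucose 6-phosphate and fructose 6-phosphate, at 0.57 (edgeR adjusted p from 7.56e-04 to 0.0214). Of 15 genes that build nucleotides from PRPP or salvage bases with it, 7 were higher and 1 lower with glucose, and 7 were higher and 2 lower without. Among them PPAT, the first enzyme of purine synthesis, had values of 0.53 and 0.51 (edgeR adjusted p = 0.00398 and 0.00413), and PAICS 0.48 and 0.64 (edgeR adjusted p = 0.00848 and 3.84e-04). CAD, which starts pyrimidine synthesis, was lower without glucose by a log2 value of -0.86 (edgeR adjusted p = 0.00175).

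The list of 12 genes of other NADPH supply also held NAD kinases, which make NADP+ and not NADPH. Of the 12, 3 were higher and none lower in each condition, a share that without glucose lay close to the 25.9% of all genes called higher. With glucose these were MTHFD2L, NADK2, and MTHFD2, and without glucose MTHFD2, a mitochondrial folate enzyme, ME3, and MTHFD1. MTHFD2 had log2 fold changes of 0.49 (edgeR adjusted p = 0.0315) and 1.30 (edgeR adjusted p = 0.0012). Of 11 genes whose enzymes use NADPH, 2 were higher and 3 lower with glucose, and 4 were higher and 4 lower without. GSR, which reduces glutathione, was higher by 0.36 and 0.66 (edgeR adjusted p = 0.0299 and 7.36e-04), and TXNRD2, the mitochondrial thioredoxin reductase, was lower with values of -1.13 and -0.88 (edgeR adjusted p = 2.67e-04 and 1.03e-04). The 10 known NRF2 targets include genes of the lists above, such as GSR and NQO1, the 2 users of NADPH higher with glucose. Of these 10 targets, 4 were higher and 2 lower in each condition. HMOX1, the heme oxygenase, was the largest change among them at -2.43 and -2.51 (edgeR adjusted p = 6.52e-04 and 1.18e-04), while SLC7A11 was higher by 0.74 with glucose (edgeR adjusted p = 8.96e-04) and SRXN1 by 1.24 without (edgeR adjusted p = 0.00886). The list medians were between -0.16 and 0.29 with glucose and between 0.09 and 0.60 without.

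On glucose deprivation, 7.15% of all genes tested were called higher and 7.58% lower in KMT2D-WT cells, and 14% and 16% in KMT2D-KO cells. The difference between the genotypes in the counts of the lists was not tested. In KMT2D-WT cells 1 of 8 glycolytic enzymes was higher (GPI), against 5 in KMT2D-KO cells, and none was lower in either. Of the 15 pentose and ribose genes, 2 were higher and 1 lower in each genotype. Of the 12 NADPH supply genes 3 and 2 were higher and none was lower. MTHFD2 rose in both, by 0.65 and 1.39 (edgeR adjusted p = 0.0212 and 0.00547). Of the 15 nucleotide synthesis genes 5 were higher and none lower in KMT2D-WT cells, and 2 were higher and 2 lower in KMT2D-KO cells. Of the 11 users of NADPH, none was higher and 1 lower in KMT2D-WT cells, and 3 were higher and none lower in KMT2D-KO cells, and of the 10 NRF2 targets 2 and 3 were higher and none was lower. For 3 of the 8 glycolytic enzymes (GPI, PFKP, and GAPDH) the interaction was called, with values of 0.37, 0.45, and 0.41 (edgeR adjusted p from 0.0381 to 0.0486). In the other lists, 2 pentose and ribose genes (TIGAR and SHPK), 1 NADPH supply gene (NADK2), and 1 nucleotide gene (CAD) had a negative called interaction. Of all 18678 genes tested for it, 11.3% were called in either direction.

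Across the 14 libraries, which share genotype, glucose, and experiment, the members followed each other to different degrees in log2 CPM. TKT and TALDO1 were the pair with the highest Pearson's r, 0.95, followed by PGLS and TKT at 0.92 and PGLS and TALDO1 at 0.91. H6PD ran opposite to PGD (-0.90), TKT (-0.89), and TALDO1 (-0.84), and RPIA and RPE, which act on the same substrate, had an r of -0.29. Once glucose condition and experiment were taken out, the pairs among PGLS, PGD, RPE, TKT, and TALDO1 had an r from 0.93 to 0.98, with RPE and TKT at 0.97 (0.43 before) and PGLS and RPE at 0.93 (0.12 before). H6PD then had an r from -0.96 to -0.92 with these 5, and RPIA from -0.13 to 0.14 with the 6 others. These values still hold the difference between the genotypes, which the libraries of a group share. Over the 14268 genes with a mean of at least 1 CPM, the most like TKT were CAPZB, AHCY, and NSFL1C, among the most like TALDO1 were TSR3 and CYC1, and the most like PGLS were GADD45GIP1, SDHB, and TACO1 (r = 0.99 for each). For PGD they were HDAC5 (0.99), COX10 (0.98), and GSR (0.97), for RPE HSPD1, CLIC4, and TSEN15 (0.98 each), for RPIA MCRIP1 (0.96), DNAJB2 (0.95), and CHMP1B (0.94), and for H6PD EVC (0.99), SSH2 (0.97), and GFOD2 (0.97). These are descriptions over libraries that are not independent, with no test.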

How the data were processed

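RNA-seq of SCC23 cells was analysed in 14 libraries. The authors mapped reads with HISAT2 and counted them per gene with featureCounts 2.0.3 on the Ensembl 102 annotation of GRCh38, without strand, and deposited unnormalized counts. Reads with several alignments may have been counted. Samples were grouped by their labels. The members, gene lists, and tests were chosen with earlier results of these data known.

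The deposited counts were tested in edgeR 4.0.16 (R 4.3.3) by quasi-likelihood after TMM scaling, on genes that passed filterByExpr at a minimum count of 10. A gene was called at a Benjamini-Hochberg adjusted p-value under 0.05 over all genes tested. Experiment was a covariate, since the experiments hold the genotypes in unequal numbers, although the study used DESeq2 and states no covariate. For the interaction, 1 fit took all 14 libraries, and experiment was nested in the glucose condition. Levels are CPM with 1 TMM scaling over all 14 libraries, and log2 CPM used a prior count of 2. Confidence intervals are 95%. Alternatives were DESeq2 1.42.0, no covariate, RLE scaling, no filter, 1 fit, single experiments and lines, halved counts of both-mate libraries, summed close pairs, and each library left out. Library-size scaling and offsets for exonic length were added after seeing the data. The genes named are the 7 members, KMT2D, at most the 4 called genes with the largest change in each list and comparison, TKTL1, TKTL2, RBKS, PRPS1, PRPS2, and TIGAR, and the 3 most alike genes for each member, of which 1 is not reported here. The edgeR fits were tested on simulated data.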

Additional observations from a re-analysis of the deposited data

Results flagged for a closer look

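For 3 members the KMT2D-KO effect differed between glucose conditions by the interaction test. The difference, without minus with glucose on the log2 scale, was 0.57 for TKT, 0.45 for PGD, and -1.23 for H6PD. In experiment 1 alone, where counting was alike, the KMT2D-KO effects with and without glucose were 0.43 and 1.03 for TKT, 0.37 and 0.94 for PGD, and -0.91 and -2.08 for H6PD. No library stood far from the others of its group in the 14 sets of 4 KMT2D-KO libraries that were examined. Chance marks about 1 in 20 such sets only if the 4 libraries are alike. These came from 2 experiments, and where the experiments stood apart this check could hardly mark a library.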

How the results depend on the processing

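Without experiment as a term (no replicate block), the number of members called fell from 5 to 0 with glucose, from 2 to 0 for the glucose response of KMT2D-WT cells, from 5 to 1 for that of KMT2D-KO cells, from 3 to 0 for the interaction, and from 3 to 0 between the lines, and went from 6 to 5 without glucose. Experiment 1 alone called 0 members in both genotype comparisons and both glucose responses, where 1 or 2 libraries stood on each side, and experiment 2 alone called 2 with glucose and 5 for KMT2D-WT cells. For the glucose response of KMT2D-WT cells, DESeq2 and no filter gave 5, library-size scaling and the fit of all 14 libraries 1, and summed close pairs 0. For the interaction, DESeq2 gave 5 and summed close pairs 0, and between the lines the fit of all 14 libraries gave 1. Leaving out each library in turn gave 2 to 6 members with glucose, 6 to 7 without, 0 to 5 and 3 to 6 for the glucose responses of KMT2D-WT and KMT2D-KO cells, 1 to 5 for the interaction, and 0 to 3 between the lines.

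Where no member was called, edgeR gave 0 to 5 members at an unadjusted p under 0.05. Of 763 recomputed log2 fold changes of members, 637 kept direction and side of the threshold, 88 lost the call, 36 gained one, and 2 turned direction, PGD in KMT2D-WT cells on glucose deprivation (0.06 in experiment 1 alone) and the interaction of RPE (-0.01 with library-size scaling). Library-size scaling moved the median of all genes by -0.25 without glucose, by -0.20 for the glucose response of KMT2D-KO cells, and by -0.23 for the interaction, where the share of calls that were higher went from 51% to 30.2%, from 46.5% to 20.5%, and from 42% to 9.9%. Under it RPIA was called lower without glucose at -0.38. Between the lines that share went from 49.7% to 65%. Each member had at least 110 counts in every library. The causes were not tested.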
